A study of Mus musculus with 4 samples.

Results

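The keratins of simple epithelia are the intermediate filament proteins of single-layered linings such as that of the colon, and 6 of their genes were examined here on 4 dual-color arrays: *Krt7*, *Krt8*, *Krt18*, *Krt19*, *Krt20* and *Krt23*. Their probes were found by gene name in the array files, with control spots left out. The 6 genes, of 27342 on the array, had 8 of the 41174 gene probes, with 2 probes each for *Krt7* and *Krt8*, and all 8 were well above background in both channels of every array and saturated on none.

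Keratin filaments are built from heterodimers of a type I and a type II keratin, so that neither kind forms filaments without the other. *Krt7* and *Krt8* encode type II keratins, and *Krt18*, *Krt19*, *Krt20* and *Krt23* encode type I keratins. In the colon, K8 pairs with K18 and K19 along the crypt, whereas K20 is a keratin of differentiated cells near the luminal surface. K7 and K23 are less prominent there.

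The study asked how Wnt signals and their enhancer Rspo3 maintain the stem cells at the base of the colonic crypt. In 1 experiment, RNA of the distal colon of a mouse labelled Rspo3 KO was hybridised with RNA of a control mouse 2 weeks after tamoxifen, with 1 mouse per channel and 2 arrays, which gives n = 2 pairs of mice. Per the study's methods, the KO mice were Myh11CreErt2/Rspo3 fl/fl and the controls were littermates carrying Myh11CreErt2 with Rspo3 +/+, so that both genotypes held the Cre and received tamoxifen. Myh11 drives the Cre in smooth muscle cells and myofibroblasts, and the epithelium, where these keratins are made, is not the targeted cell. In the other experiment, epithelial cells of Axin2CreErt2/Rosa26-tdTomato mice were sorted 24 h after tamoxifen into tdTomato positive (Axin2+) and tdTomato negative (Axin2-) cells, and cells of 3 mice were pooled. The same pair of pools lies on both arrays with the dyes reversed, which is 1 replicate with no replicate check. All mice were C57BL/6, and the methods give males of 6 to 8 weeks. Tamoxifen was given at 4 mg per 25 g of body weight in 200 µl of corn oil, once or on up to 3 days in a row. Axin2- cells are all other sorted epithelial cells, of mixed kinds, and colon RNA comes from every cell type of the tissue, so that fewer cells of a type and less RNA per cell cannot be told apart.

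Each array held 43379 gene spots, of which 53.1% to 60.3% exceeded background clearly, depending on the channel. All 7 epithelial markers listed (*Epcam*, *Cdh1*, *Cldn3*, *Cldn7*, *Vil1*, *Lgals4*, *Elf3*) were well above background in every channel of both experiments. In the sorted cells, 4 of 7 smooth muscle markers were measured (*Acta2*, *Actg2*, *Tagln*, *Smtn*), 2 of 6 fibroblast markers (*Dcn*, *Col1a2*), 1 of 6 mesothelial markers and 6 of 7 immune markers. *Myh11*, *Des*, *Col1a1*, *Pdgfra* and *Lum* had no channel well above background. The mean normalised log2 intensity was 6.35 to 6.59 for the fibroblast list and 7.03 to 7.39 for the immune list. Whether these signals came from other cell types in the sort was not tested. The sort marker *Axin2* was itself higher in the Axin2+ pool (log2 ratios 1.35 and 1.30), and so was *Lgr5*, a receptor of crypt base stem cells (1.497 and 1.559). *Rspo3* itself could be read from 1 of its probes on the second KO array alone, at 0.17, so that its deletion was not visible in these data, and KO hereafter means the channel labelled Rspo3 KO. Where that probe lies relative to the deleted part is not given in the sources used here.

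The probes report short stretches of each transcript, and their sequences are shown because every value below rests on them. On mm9, the build of the array files, *Krt19* was probed at chr11:100002392-100002451 on the minus strand, *Krt23* at chr11:99339393-99339452 on the minus strand and *Krt7* by its second probe at chr15:101253718-101253777 on the plus strand. These 60 bases are given whole, and each has a reading frame without a stop codon over its length. The first *Krt7* probe and both *Krt8* probes have such a frame too, and an open frame alone does not show coding sequence. Whether a probe lies in coding or untranslated sequence is not annotated in the array files.

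Krt19: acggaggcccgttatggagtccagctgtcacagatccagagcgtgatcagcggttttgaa
Krt23: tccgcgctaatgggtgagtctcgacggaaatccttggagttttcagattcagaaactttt
Krt7, probe 2: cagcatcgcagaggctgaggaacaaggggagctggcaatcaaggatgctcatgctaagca

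*Krt20* was probed at chr11:99289776-99289835 on the minus strand and *Krt18* at chr15:101862341-101862400 on the plus strand. The *Krt8* probes lie at chr15:101827346-101827405 and chr15:101827214-101827273 on the minus strand, and the first *Krt7* probe at chr15:101258172-101258231 on the plus strand. The 30 bases at the 5′ end of the *Krt20*, *Krt18* and first *Krt8* probes are shown, since these genes had the most unlike ratios in the sorted cells.

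Krt20, first 30 bases: ataagaacacagcacaaggtgattgacatg
Krt8, first 30 bases: tggtgtccgagtcttctgatgtcgtgtcca
Krt18, first 30 bases: ggatggcagagtggtgtccgagactaatga

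No member probe shared a run of more than 13 bases with a probe of another keratin gene on the array. That run lay between the second *Krt7* probe and *Krt79*, a type II keratin, and the *Krt8* and *Krt18* probes shared 11 bases with each other. Against probes of any gene, the longest shared run was 16 bases, between *Krt23* and *Strbp*.

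The first comparison asked how Axin2+ cells, which include the crypt base, differ from the other epithelial cells. The 6 keratins did not move as a block. *Krt20* was 7.42-fold lower in Axin2+ cells, *Krt8* 1.78-fold lower and *Krt19* 1.59-fold lower, whereas *Krt18*, the usual partner of *Krt8*, was 1.31-fold higher. *Krt7* and *Krt23* differed by less than 1.5-fold. Past 1.5-fold by the mean and in the same direction on both arrays, 3 of the 6 members were lower and 0 were higher, against 6.93% of all 15877 genes measured that were lower and 7.87% that were higher by the same rule. The median of the members' mean log2 ratios was -0.44, and that of all genes was -0.00485. From these same arrays the study had already named *Krt20* a marker of part of the Axin2- cells. The members were chosen with earlier results of these data known, so that their count is a description and no independent support.

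**Figure D1:**
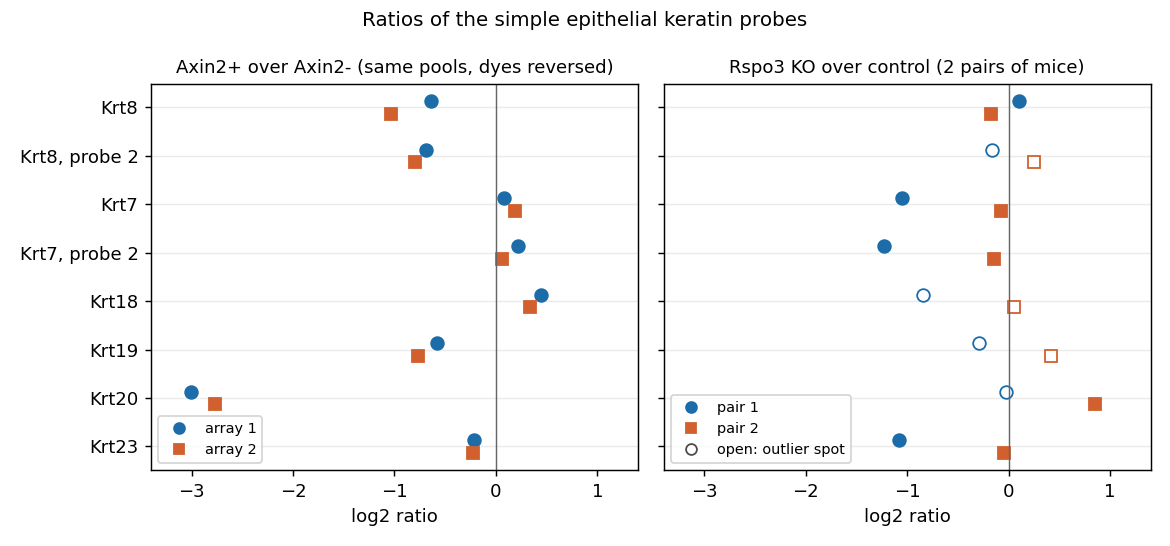
Log2 ratio of each keratin probe (rows) on each array, Axin2+ over Axin2- cells on the left and Rspo3 KO over control on the right, with circles for array or pair 1, squares for array or pair 2 and open symbols for spots the extraction software called outliers. Left, the *Krt20* probe lies near -3 and *Krt18* lies above 0, where median centring in place of loess gave a mean of -0.06; right, *Krt7*, *Krt23* and *Krt18* lie near -1 in pair 1 and near 0 in pair 2, an order that median centring turned for *Krt7* (-0.18 and -0.87) and *Krt23* (-0.32 and -0.66).

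*Krt20* had log2 ratios of -3.01 on array 1 and -2.77 on array 2. Its normalised level, the log2 intensity of a channel after loess within and quantile scaling between arrays, was 11.97 and 12.14 in Axin2+ cells and 14.98 and 14.91 in Axin2- cells. The *Krt20* signal in Axin2+ cells remained well above background on both arrays. Its mean ratio was the 11th lowest of all genes measured.

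*Krt8*, the main type II keratin of simple epithelia, had log2 ratios of -0.64 and -1.03, and its second probe had -0.69 and -0.79. Its levels were 16.03 and 15.59 in Axin2+ cells and 16.67 and 16.62 in Axin2- cells. The second probe, which shares no sequence position with the first, read 15.51 and 15.43 in Axin2+ cells and 16.20 and 16.22 in Axin2- cells. Both probes therefore placed *Krt8* lower in Axin2+ cells, with the larger spread between dye orientations in the first. With median centring in place of loess, which leaves each array's dye trend with brightness in the ratios, *Krt8* was at 0.34 and -2.96, so that the arrays no longer moved alike, while the mean of -1.31 kept the direction.

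*Krt19*, which can pair with K8 and has a very short tail domain, had log2 ratios of -0.58 and -0.77. Its levels were 15.18 and 15.05 in Axin2+ cells and 15.75 and 15.82 in Axin2- cells. Median centring gave 0.41 and -2.61, and thus opposite signs here too.

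*Krt18* went the other way. Its log2 ratios were 0.45 and 0.33, with levels of 15.94 and 15.81 in Axin2+ cells and 15.49 and 15.48 in Axin2- cells. The direction for *Krt18* by itself depends on the scaling, since median centring in place of loess gave a mean of -0.06 and the ratio of the extraction software a mean of 0.16. Set against *Krt8* on the same array, its log2 ratio was higher by 1.08 on array 1 and by 1.36 on array 2, and this difference between the partners was 1.06 to 1.13 on array 1 and 1.24 to 1.47 on array 2 under all processing alternatives that used both arrays. A shift common to both genes on an array cancels in this difference, so that its narrow range under other scaling was largely given in advance. The difference rests on the same pair of pools and on the only *Krt18* probe, and the sign for *Krt18* depended on the scaling.

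*Krt23* had log2 ratios of -0.21 and -0.22, with levels of 10.35 and 10.37 in Axin2+ cells against 10.57 and 10.59 in Axin2- cells. The difference was small and, under loess, nearly equal in both dye orientations. Median centring gave *Krt23* 0.85 and -1.40, and the software's ratio gave -0.35 and -0.17. *Krt7* had log2 ratios of 0.08 and 0.19, and its second probe had 0.22 and 0.06. The first *Krt7* probe had levels of 14.62 and 14.64 in Axin2+ cells and 14.55 and 14.45 in Axin2- cells. For the second *Krt7* probe, the levels of 12.56 and 12.35 in Axin2+ cells and 12.34 and 12.29 in Axin2- cells differed by about as much within a pool as between the pools.

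**Figure D2:**
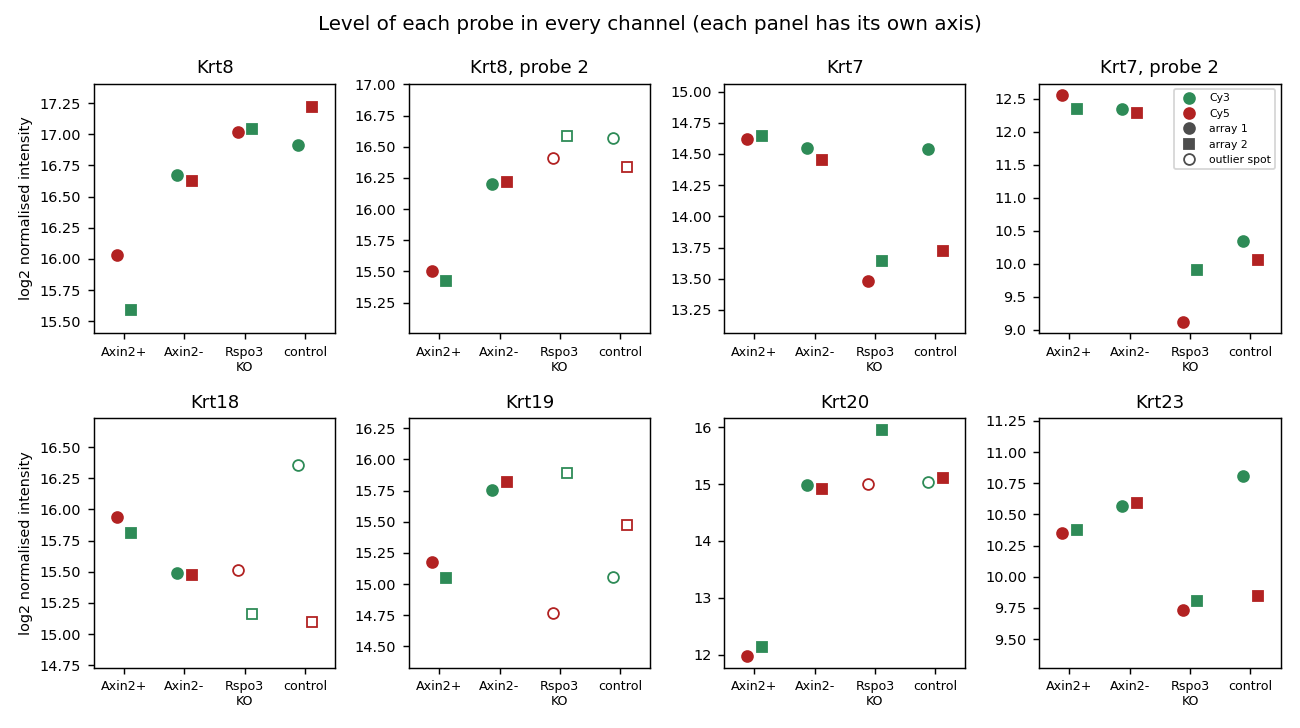
Normalised level (log2 intensity, loess within and quantile scaling between arrays) of each probe in all 8 channels, with 1 panel and 1 axis range per probe, circles for array 1, squares for array 2, green for Cy3, red for Cy5 and open symbols for outlier spots. *Krt20* in Axin2+ cells, at 11.97 and 12.14, lies apart from all its other channels, and the control channel of pair 1 lies highest of the KO experiment for both *Krt7* probes, *Krt23* and *Krt18* under this loess scaling.

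Markers of mature cell types moved in the same comparison. Each of the 7 surface colonocyte markers was past 1.5-fold and lower in the Axin2+ pool in both dye orientations (median of the list -2.29), and the mean level of the list was 11.003 and 10.986 in Axin2+ cells and 13.31 and 13.24 in Axin2- cells. Among them, *Car4*, a carbonic anhydrase, was at -3.06 and -3.18 and *Aqp8*, a water channel, at -3.06 and -2.83. The goblet cell list had a median of -1.18 (lower in 6 of 7 on both arrays) and the tuft cell list one of -1.29 (lower in 6 of 6 measured), whereas 6 of 7 crypt base stem cell markers were higher on both arrays, with a median of 1.12. Over all 15877 genes measured, 6619 were lower and 6521 higher on both arrays, and 1100 were lower and 1249 higher past 1.5-fold. Of the immune markers measured, 5 of 6 were lower in the Axin2+ pool on both arrays, 1 of them past 1.5-fold. That was *Cd52*, a leukocyte surface protein, at -1.35 and -1.14. *Ptprc*, which encodes CD45, was at -0.65 and -0.50, while *Cd79a* and *Ms4a1* had means of -0.09 and -0.06. The mean level of the immune list was 7.03 and 7.06 in Axin2+ cells and 7.36 and 7.39 in Axin2- cells. Of the smooth muscle list, 1 was higher and 1 lower on both arrays, and both fibroblast markers measured were lower. The part of these lists in the keratin ratios was not tested.

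The second comparison asked how loss of Rspo3 in the stroma affects the colon. None of the keratins passed the test. *Krt7*, *Krt8* and *Krt23* could be fitted, and 0 of these 3 had an adjusted p under 0.05 by limma, against 0.261% of 15298 genes. At an unadjusted p under 0.05, 0 of the 3 members and 710 of all genes passed. On simulated data this test called more false genes than its threshold allows, and every call by it below carries this limit. The other 3 genes had no pair of usable spots, because the extraction software called their spots outliers for uneven pixels: both *Krt18* spots, both *Krt19* spots and the *Krt20* spot of pair 1, together with the second *Krt8* probe on both arrays. These are 7 of the 16 keratin spots of the KO arrays, against 0 of 16 on the Axin2 arrays. With outlier spots kept, 6 of 6 members were fitted and 0 passed, against 0.225% of 15588 genes.

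*Krt7* had log2 ratios of KO over control of -1.05 in pair 1 and -0.08 in pair 2 (mean -0.57 ± 0.69, SD, n = 2 pairs; 95% interval by limma's moderated error -1.23 to 0.10, limma adjusted p = 0.9998). Its second probe had -1.22 and -0.14. In the first pair, the level was 13.49 in the KO and 14.54 in the control, and in the second it was 13.64 in the KO and 13.72 in the control. Both probes thus showed the difference in 1 pair and hardly any in the other, and of the 4 mice the control of pair 1 stood apart by the first probe. Unlike values in the 2 pairs were common to all genes and not particular to keratins. The Pearson r between the KO arrays was 0.034, and 8528 of 15298 genes had opposite signs in the pairs. Which pair carried the difference depended on the scaling, since median centring gave *Krt7* -0.18 in pair 1 and -0.87 in pair 2.

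*Krt23* repeated this pattern, with log2 ratios of -1.08 and -0.05 (mean -0.56 ± 0.73, SD, n = 2 pairs; 95% interval -1.24 to 0.12, limma adjusted p = 0.9998). Median centring turned its order of pairs as well, to -0.32 and -0.66. Its level was 10.81 in the control of pair 1 and between 9.73 and 9.85 in the other 3 mice. *Krt18*, read from outlier spots, was at -0.85 and 0.06 (95% interval -1.05 to 0.27, limma adjusted p = 0.9998), with a level of 16.36 in the control of pair 1 and of 15.51, 15.16 and 15.10 in the other mice.

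*Krt8* had log2 ratios of 0.10 and -0.17 (mean -0.04 ± 0.20, SD, n = 2 pairs; 95% interval -0.58 to 0.50, limma adjusted p = 0.9998), and its levels lay between 16.92 and 17.22 in all 4 mice. Its second probe, read from outlier spots, was at -0.16 and 0.25. The pairs disagreed in sign with both probes, each in the opposite order. *Krt19*, read from outlier spots, was at -0.29 and 0.41 (95% interval -0.55 to 0.67, limma adjusted p = 0.9998).

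*Krt20* was at -0.03 in pair 1, from an outlier spot, and at 0.86 in pair 2, from a usable one (mean 0.41 ± 0.63, SD, n = 2 pairs; 95% interval -0.24 to 1.07, limma adjusted p = 0.9998). Its level was 15.96 in the KO mouse of pair 2 and at most 15.10 in the other mice. By the second *Krt7* probe the channel that stood apart was instead the KO of pair 1, labelled with Cy5, at 9.12 against 9.91 in the other KO and 10.34 and 10.05 in the controls. The other channels that stood apart, the control of pair 1 for *Krt23*, *Krt18* and the first *Krt7* probe and the KO of pair 2 for *Krt20*, were both labelled with Cy3, and mouse and dye cannot be told apart within a pair. By the probe that stood for each gene, none of the members was past 1.5-fold by the mean with both pairs alike, against 4.32% of genes. *Krt7* and *Krt23*, at 1.48-fold each, were the nearest to that threshold by these probes. The second *Krt7* probe, with a mean of -0.68, was past the threshold with both pairs alike.

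**Figure D3:**
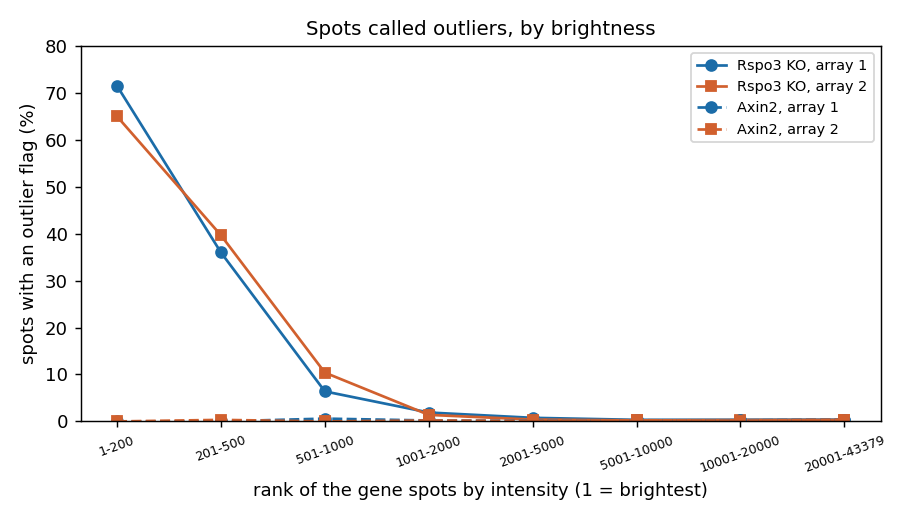
Share of gene spots that the extraction software called outliers (vertical axis, percent) by rank of the spot's intensity on its array (horizontal axis, 1 is the brightest), with solid lines for the Rspo3 KO arrays and dashed lines for the Axin2 arrays. On the KO arrays the share is 71.5% and 65.0% among the 200 brightest spots and 1.90% or less from rank 1001 on; on the Axin2 arrays it stays at or below 0.60% throughout.

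The outlier calls on the KO arrays went with brightness. Of the 200 brightest gene spots, 71.5% on array 1 and 65.0% on array 2 carried the call, against 0% on both Axin2 arrays. The called keratin spots were among the 283 brightest of their array, and their median pixel was 1.07 to 1.49 times their mean pixel. *Krt8* by its first probe, the brightest and second brightest gene spot of the KO arrays, was not called. Keratin ratios taken from median pixels with outlier spots kept, an alternative added after the data had been seen, left 0 of 6 members past the adjusted p.

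Marker lists of other cell types had the following values in the same mice. In the KO channels, 5 of 6 mesothelial markers were higher past 1.5-fold by the mean with both pairs alike, against 283 of all 15298 genes measured. Their median log2 ratio was 1.43 in pair 1 and 0.35 in pair 2. The mean level of the list was 8.55 and 7.39 in the KO and 7.28 and 7.02 in the controls. The mesothelium, the outer lining of the colon, also makes K7, K8, K18 and K19. Squamous epithelial markers, 6 of 10 measured, had medians of -0.58 in pair 1 and -0.10 in pair 2, and *Krt4* and *Krt6a* were not well above background in any KO array channel. All 7 crypt base markers were lower in both KO mice, with medians of -1.28 and -0.95, and *Lgr5* was well above background in both control channels and in neither KO channel. No mesothelial, squamous or crypt base marker passed limma's adjusted p as reported. *Lgr5* passed under 6 alternatives that used both arrays (limma adjusted p from 3.2e-05 to 0.0253), of which the software's ratio and the series' table hold the same values. The mesothelial marker *Gpm6a* passed with an intensity trend (limma adjusted p = 0.0470). Among all marker lists 1 gene passed as reported, the B cell gene *Ms4a1*, at -2.75 and -2.27 (limma adjusted p = 0.0125). That call was lost under 5 of the alternatives that used both arrays, with limma adjusted p from 0.0642 to 0.9996. Surface colonocyte markers, with outlier spots kept, had medians of 0.65 in pair 1 and -0.05 in pair 2, and the list's mean level was 14.14 and 13.81 in the KO and 13.55 and 13.77 in the controls. The part of any of these in the keratin ratios was not tested.

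The wider keratin family was mostly dim. Of 21 other epithelial keratins listed, 19 had a probe and 10 were measured in the KO experiment, and 0 passed limma's adjusted p. *Krt16*, a keratin of stressed stratified epithelium, was at -1.74 and -0.70 (limma adjusted p = 0.338), and it passed under 5 alternatives that used both arrays (limma adjusted p from 0.00258 to 0.0366), with a mean from -2.25 to -0.47 over all 14 alternatives that used both arrays. Among those under which it passed, the software's ratio and the series' table hold the same values. *Krt15*, a keratin of basal cells, was at -1.33 and -0.39 (limma adjusted p = 0.732). *Krt17*, a keratin of skin appendages and stressed epithelium, was the 1 member of the list past 1.5-fold and higher in both pairs, at 0.05 and 1.13 (limma adjusted p = 0.9998), and was named after its values were seen. The list's median was -0.58 in pair 1 and 0.02 in pair 2. In the sorted cells 9 of these keratins were measured and 0 were past 1.5-fold, with *Krt12*, a corneal keratin, the lowest at -0.26 and -0.47. This count rests on the background offset, since the mean of *Krt12* was -2.05 with the software's ratio and -0.67 with an offset of 16. Of 24 hair and hair follicle keratins, 17 had a probe, 2 were measured in the KO and 6 in the sorted cells, and 0 were past 1.5-fold alike in either. *Krt84* among them was at 0.37 and 0.79 in the KO and at -0.51 and -0.42 in Axin2+ cells, where its mean was -1.13 with the software's ratio, -0.69 with an offset of 16 and -0.59 without background correction.

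Proteins that hold the keratin network to desmosomes and other structures were measured throughout, 14 of 14 in each experiment. In Axin2+ cells 1 of 14 was past 1.5-fold, *Evpl*, a plakin of the cornified envelope, at -0.95 and -0.99. By the same rule 6.93% of all genes were lower. *Plec*, which links filaments to hemidesmosomes, was at -0.40 and -0.62. The list's median was -0.07, and in the KO 0 of 14 passed the adjusted p, with a median of 0.06.

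Of 12 proteins that bind or regulate keratins, 2 were higher and 3 lower past 1.5-fold in Axin2+ cells, with a median of 0.05. By the same rule 7.87% of all genes were higher and 6.93% lower. *Pnn*, a keratin-binding protein also found in nuclear speckles, was at 1.09 and 1.12 and *Tgm2*, a transglutaminase, at 1.03 and 0.96, though its mean over all its probes was 0.41. The lower ones were *Tradd*, a death receptor adaptor that K18 binds, *Hspb1*, a small heat shock protein, and *Fam83h*, which recruits casein kinase to keratin filaments, with means of -0.96, -0.77 and -0.59, the last of which was -0.54 with the software's ratio, short of 1.5-fold. In the KO 0 of the 12 passed the adjusted p.

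Among 12 transcription factors known to act on simple epithelial keratin genes or in the same cells, 2 were higher and 1 lower past 1.5-fold in Axin2+ cells. The shares of all genes were 7.87% higher and 6.93% lower by the same rule. *Klf4*, a factor of differentiated colonocytes, was lower in Axin2+ cells (mean -1.02), as *Krt20* was. *Ets2* was at 0.98 and 0.85 and *Gata6*, the other factor past the threshold, at 0.82 and 0.49, which fell short of it with median centring (mean 0.56) and with the mean over its probes (0.25). In the KO, 9 of the 12 were measured and 1 passed, *Cdx2*, a homeobox factor of intestinal epithelium, which was higher at 2.33 and 1.91 (mean 2.12 ± 0.30, SD, n = 2 pairs; limma adjusted p = 0.0194). This call was lost when the background was fitted to all spots (limma adjusted p = 0.251), with median centring (0.657), without the filter on dim probes (0.489), with the mean over a gene's probes (0.0642) and with median pixels (0.121), while its mean ratio stayed between 2.02 and 2.18 over the alternatives that used both arrays. *Cdx2* had 1 probe and was at 0.31 and 0.52 in Axin2+ cells. The limit on false calls given above applies to its call in the KO. *Elf3*, an epithelial ETS factor, was at -0.61 and -0.60 in the KO (limma adjusted p = 0.909).

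Of the intermediate filament genes of other cells, 8 were measured in the sorted pools, of which 6 were lower and 1 was higher in Axin2+ cells on both arrays. *Vim*, the filament of mesenchymal and immune cells, was at -1.01 and -0.91, and *Lmnb1*, a nuclear lamin of proliferating cells, at 1.095 and 0.905, while *Des*, *Gfap*, *Prph*, *Ina* and *Synm* were not well above background. In the KO 0 of 13 measured genes passed the adjusted p, and the list's median was 0.000358.

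**Figure D4:**
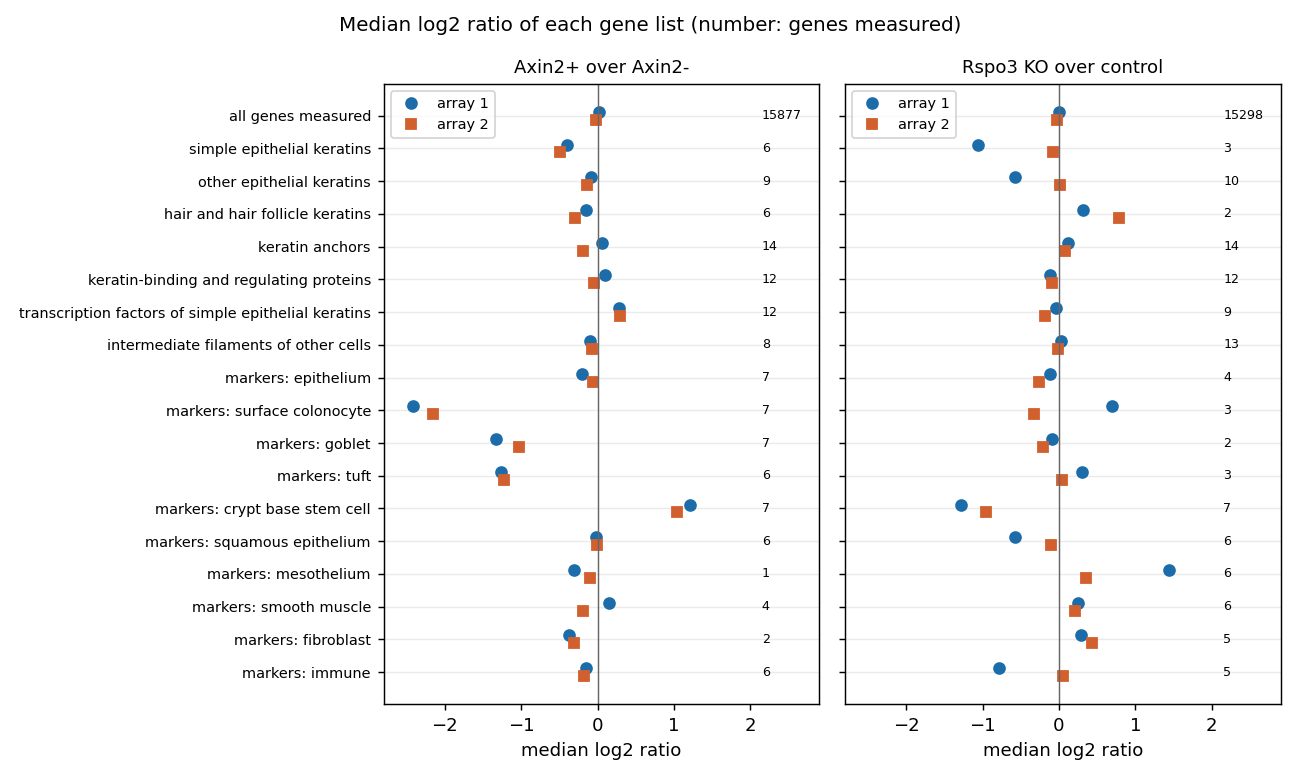
Median log2 ratio of each gene list (rows) on array 1 (circles) and array 2 (squares), Axin2+ over Axin2- on the left and Rspo3 KO over control on the right, with the number of genes measured at the right of each row. In the sorted cells the surface colonocyte list has the lowest median and the crypt base list the highest. In the KO, under loess scaling, the medians of the simple and other epithelial keratins and the mesothelial markers differ between the pairs. So do those of the surface colonocyte (0.70 and -0.33), immune (-0.79 and 0.06) and squamous (-0.58 and -0.10) lists. Unlike values in the 2 pairs were common to all genes.

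The genes whose 4 log2 ratios lay nearest to those of a keratin, by Euclidean distance over the 2 KO and 2 Axin2 arrays among 13547 genes measured in both experiments, were *Tspan6* (distance 0.09), *Myo5b* (0.18) and *Stom* (0.19) for *Krt8*. They were *Prdm16* (0.12), *Lhpp* (0.14) and *Slc19a1* (0.16) for *Krt7*, and *Peg12* (0.14), *Gimap6* (0.20) and *Myo1g* (0.20) for *Krt23*. With outlier spots kept, over 13838 genes, *Krt18* was nearest to *Parp1* (0.09), *Spc24* (0.15) and *Dhodh* (0.18), and *Krt19* to *Slc66a1* (0.06), with *Pla2g10* (0.14) also among its nearest. *Krt20* had no gene as close, and its nearest were *Ifit1bl1* (0.56), *Sgk2* (0.71) and *Apol6* (0.79). These are descriptions over 4 arrays.

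In the order of levels within a probe, *Krt20* ran from Rspo3 KO colon (mean 15.48, SD 0.67, n = 2 mice) over control colon (15.06, SD 0.05) and Axin2- cells (14.94) to Axin2+ cells (12.05), and the first 3 of these did not differ beyond the spread between the KO mice. *Krt8* by its first probe had the same conditions on top, control at 17.07 (SD 0.21), KO at 17.03 (SD 0.02), Axin2- at 16.65 and Axin2+ at 15.81, of which control and KO did not differ beyond their spread. *Krt7* by its first probe stood higher in sorted cells, with Axin2+ at 14.63 and Axin2- at 14.501, than in control colon at 14.13 (SD 0.58) and KO at 13.56 (SD 0.11), and control colon differed from none of its neighbours beyond its spread. The second *Krt7* probe set the experiments wide apart, with 12.45 in Axin2+ and 12.31 in Axin2- cells against 10.197 (SD 0.21) in control colon and 9.51 (SD 0.55) in KO. *Krt23* ran from Axin2- (10.58) over Axin2+ (10.36) and control (10.33, SD 0.68) to KO (9.77, SD 0.05), again with a wide spread between the controls. *Krt18* ran from Axin2+ (15.87) over control (15.73, SD 0.89) and Axin2- (15.48) to KO (15.34, SD 0.25), and *Krt19* from Axin2- (15.79) over KO (15.33, SD 0.80) and control (15.27, SD 0.30) to Axin2+ (15.11). For *Krt18* and *Krt19*, no neighbours in these orders that involve colon differed beyond the spread between mice. Whole colon and sorted cells lay on separate slides, so that tissue and slide cannot be told apart in these orders.

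RefSeq promoter windows of GRCm38.p6, 250 bases before to 50 after the start, were listed for 5 of the 6 genes, *Krt7*, *Krt8*, *Krt18*, *Krt20* and *Krt23*. In RefSeq's order *Krt8* and *Krt18* are neighbours with 0 protein-coding genes between them, on opposite strands, and *Krt20* and *Krt23* are neighbours too. The 250 bases before the start are shown for *Krt20* (chr11:99438154-99438403, minus strand), with the largest ratio, and for the partners *Krt8* (chr15:102004343-102004592, minus strand) and *Krt18* (chr15:102027966-102028215, plus strand), whose ratios differed. Capitals mark matches, on either strand, to the TATA box TATAAA, the Tcf/Lef motif CTTTGA, the Cdx motif TTTATNG, the GATA motif AGATAA, the Sp1 motif GGGCGG or the AP-1 motif TGANTCA. A match that reaches past the start, as in *Krt8*, is not marked.

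Krt20: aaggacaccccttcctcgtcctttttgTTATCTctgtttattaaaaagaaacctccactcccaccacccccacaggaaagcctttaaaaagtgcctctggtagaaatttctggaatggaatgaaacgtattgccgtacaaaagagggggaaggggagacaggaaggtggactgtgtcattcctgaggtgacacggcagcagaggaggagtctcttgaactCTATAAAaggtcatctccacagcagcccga
Krt8: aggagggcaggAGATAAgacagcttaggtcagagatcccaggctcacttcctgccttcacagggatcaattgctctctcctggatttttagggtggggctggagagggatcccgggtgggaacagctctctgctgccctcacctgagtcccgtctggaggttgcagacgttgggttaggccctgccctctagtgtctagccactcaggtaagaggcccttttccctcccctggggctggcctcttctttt
Krt18: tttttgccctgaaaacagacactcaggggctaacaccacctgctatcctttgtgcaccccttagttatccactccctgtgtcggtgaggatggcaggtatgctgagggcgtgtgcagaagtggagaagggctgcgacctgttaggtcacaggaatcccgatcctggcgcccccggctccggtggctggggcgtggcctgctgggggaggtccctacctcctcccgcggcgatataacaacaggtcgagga

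The *Krt20* window held TATAAA 29 bases before the start, overlapped by TTTATNG on the other strand at 30 bases, and AGATAA on the other strand at 223 bases. *Krt8* held AGATAA 239 bases before the start and TATAAA on both strands across the start itself, *Krt7* held GGGCGG 4 times, and *Krt18* and *Krt23* held none of the motifs. Of all 32851 windows, 13.6% held TATAAA, 10.9% TTTATNG, 11.2% AGATAA, 35.7% GGGCGG and 7.81% TGANTCA on either strand, and 5257 windows held CTTTGA. A match is a stretch of letters and says nothing here about a bound factor.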

How the data were processed

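Samples were grouped by their labels. The members and the gene lists were chosen with earlier results of these data known. The authors labelled and hybridised the RNA and ran Agilent Feature Extraction (version 11.5.1.1 per the file headers), and deposited for every spot the mean and median signal intensity and background intensity of each dye and a log10 ratio, Cy5 being the numerator. The values in the series' own table are that log10 ratio again. Labels name distal colon and TRIzol, the methods colon and a spin column kit.

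In R (version 4.3.3), limma (version 3.58.1) corrected the background by normexp with an offset of 50, fitted without spots of uneven background, and normalised log2 ratios by loess within each array. Outlier spots were left out, ratios of the array with reversed dyes were turned, the brightest probe stood for a gene, and a gene counted as measured where, on each of its experiment's arrays, 1 or both channels of that probe exceeded background clearly. Of 41174 probes, 7428 kept the file's gene name and the others were named through RefSeq (GRCm38.p6). Rspo3 KO ratios were tested against 0 with limma (lmFit and eBayes, Benjamini-Hochberg over all genes, 1 residual and 6.78 prior degrees of freedom). On simulated data the test recovered the changed genes but called more false ones than its threshold allows. The Axin2 arrays, a dye swap of 1 pair of pools, got no test. Nothing in the labels names separate litters or days. The titles of the KO arrays hold numbers that, read in channel order, lie close within a genotype and far apart between genotypes. What these numbers mean is not given, so that a group of animals that ran with genotype could not be told apart from it. The p-values measure the spread between these pairs, which differ in dye orientation as well as in mice. Through the prior degrees of freedom, each gene's error is drawn largely from all genes. The number of arrays limits the precision.

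Named genes were the members, from each list the 2 genes with the largest mean ratio in an experiment and any past the adjusted p, the 3 genes nearest to each member (1 of them is not reported here), and *Rspo3*, *Lgr5* and *Axin2*. Of these, those that bear on a member are given, and *Gata6*, *Tradd*, *Hspb1*, *Fam83h* and *Krt17* were named after their values were seen. Alternatives were the software's log ratio, the series' table (the same values, counted separately in every tally), no background correction, an offset of 16, all spots in the background fit, median centring, no or a stricter filter on dim probes, the mean over probes, outlier spots kept, median pixels (added later), each array left out, a 2-fold threshold and other limma fits.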

Additional observations from a re-analysis of the deposited data

How the results depend on the processing

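No member passed the adjusted p in any of the 14 alternatives that used both KO arrays. Leaving out 1 array gave 0 to 2 members past it, both of them (*Krt7* and *Krt23*) without pair 2, where the spread comes from the dye swap of the Axin2 pools and the lone KO pair is assumed to vary like them. The number of members past 1.5-fold in the KO was 0 as reported. It was 1 (*Krt23*) with the software's log ratio and with the series' table. With all spots in the background fit and with the mean over probes it was 1 (*Krt7*), and it was 0 to 2 with 1 array left out. In Axin2+ cells it was 3 as reported, 1 with median centring (*Krt8* and *Krt19* then had opposite signs on the arrays), 1 at 2-fold and 2 to 3 with 1 array left out, *Krt19* being short of 1.5-fold on array 1 alone. Median centring turned the Axin2 mean of *Krt7* to -0.23 and of *Krt18* to -0.055, and the *Krt8* mean of the KO was 0.00387 with the software's log ratio and with the series' table. With 1 pair left out, the KO ratio was -0.17 to 0.10 for *Krt8*, -0.85 to 0.058 for *Krt18*, -0.29 to 0.41 for *Krt19* and -0.029 to 0.86 for *Krt20*. Genes called in the KO over all genes numbered 40 as reported, 0 without the filter on dim probes, 1 with all spots in the background fit and up to 207 with a dye term. For Axin2+, 1249 genes were higher and 1100 lower past 1.5-fold as reported, 2743 and 2442 with the software's log ratio and 499 and 591 with median centring, where 45.8% of the calls were higher against 53.2% as reported. No paired analysis was possible because every ratio is already taken within a pair, so that the reported KO test is itself the one over pairs and no further block can be added.

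Outlier calls on bright spots limit *Krt18*, *Krt19* and *Krt20* in the KO arrays to readings from uneven spots.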
